A study of Mus musculus with 4 samples.

Results

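The genes described are 43 transcripts of the type I interferon response, listed by name as a functional group. All but 1 are among the 31253 genes listed for each library, so 42 members are described; Mx1 is not analysed here. They were followed in CD8+ T cells sorted (CD45+ CD8+) from tumours of MB49, a mouse bladder carcinoma line, by droplet single-cell RNA sequencing in 4 libraries. KO is the library of BFAR-CD8-KO mice, described as deficient for Bfar in CD8+ T cells with no driver of the deletion named, and WT is its wild-type partner. Both are of strain C57BL/6Slac, aged 10 to 12 weeks, with subcutaneous tumours. Aged and Young are the libraries of CD8+ T cells from donors aged 18 months and 8 weeks, given by vein on the day of tumour inoculation to Rag1-/- hosts aged 8 to 10 weeks. Rag1 is needed to rearrange antigen receptor genes, so the hosts lack T and B lymphocytes. The labels spell the host strain as B6.129S7-Rag1tm1Mom/J for Aged and B6.129S7-Rag1tm0Mom/J for Young. Each library pooled the cells of 3 mice and each group is 1 library, so there is no spread between replicates, no test could be made, and intervals cover counting error only.

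Type I interferons, the alpha and beta interferons, bind the receptor IFNAR1 and IFNAR2, and the kinases JAK1 and TYK2 then activate transcription factors. The complex ISGF3, which includes IRF9 and STAT2, binds the interferon-stimulated response element in promoters and raises a shared set of antiviral genes. In tumours, T cells can show this programme beside their other activation states, and interferon gamma raises part of the same genes.

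The response element can be looked for in the promoters of the members. They are listed as genes of this response, so a higher share with the motif than among all genes can follow from that choice. The motif searched, chosen from general knowledge of this element, was GAAANNGAAA, on both strands and with overlapping matches counted, in the 300 bases from 250 before to 50 after the transcription start of RefSeq (GRCm38.p6). Of the 42 members, 34 matched a promoter in that table, and 20 of them (58.8%) held the motif, against 1079 of 27025 genes in all (3.99%). Among 60 matched other interferon-induced genes, 32 held it (53.3%). The promoters below belong to the ubiquitin-like Isg15, to Ifit1, Ifit3 and Rsad2, which were among the members most confined to few cells, and to Irf7, an abundant member in whose window these letters do not occur. Capitals mark the motif on either strand.
Isg15 (chr4:156200769-156201068, minus strand): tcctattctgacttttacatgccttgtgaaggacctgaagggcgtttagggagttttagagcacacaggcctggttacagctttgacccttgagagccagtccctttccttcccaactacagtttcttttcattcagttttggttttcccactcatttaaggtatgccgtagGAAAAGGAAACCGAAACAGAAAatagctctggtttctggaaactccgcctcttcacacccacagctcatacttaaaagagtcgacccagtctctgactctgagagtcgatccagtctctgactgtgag
Ifit1 (chr19:34640639-34640938, plus strand): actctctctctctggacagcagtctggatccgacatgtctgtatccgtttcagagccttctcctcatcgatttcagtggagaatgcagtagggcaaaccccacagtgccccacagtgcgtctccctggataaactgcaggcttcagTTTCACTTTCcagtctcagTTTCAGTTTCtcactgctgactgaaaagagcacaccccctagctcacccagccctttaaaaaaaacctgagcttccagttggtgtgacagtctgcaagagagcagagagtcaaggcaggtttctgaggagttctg
Ifit3 (chr19:34583279-34583578, plus strand): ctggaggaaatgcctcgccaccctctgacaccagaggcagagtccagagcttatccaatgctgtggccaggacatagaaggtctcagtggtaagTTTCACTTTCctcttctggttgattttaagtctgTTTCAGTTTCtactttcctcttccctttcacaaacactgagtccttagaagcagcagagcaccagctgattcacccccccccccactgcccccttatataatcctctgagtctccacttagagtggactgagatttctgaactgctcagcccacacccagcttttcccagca
Rsad2 (chr12:26456403-26456702, minus strand): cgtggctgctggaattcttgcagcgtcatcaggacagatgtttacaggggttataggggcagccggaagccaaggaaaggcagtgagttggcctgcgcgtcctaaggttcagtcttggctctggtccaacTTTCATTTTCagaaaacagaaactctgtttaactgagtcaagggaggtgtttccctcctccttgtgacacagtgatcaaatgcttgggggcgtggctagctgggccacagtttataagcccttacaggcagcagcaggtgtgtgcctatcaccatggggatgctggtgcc
Irf7 (chr7:141266375-141266674, minus strand): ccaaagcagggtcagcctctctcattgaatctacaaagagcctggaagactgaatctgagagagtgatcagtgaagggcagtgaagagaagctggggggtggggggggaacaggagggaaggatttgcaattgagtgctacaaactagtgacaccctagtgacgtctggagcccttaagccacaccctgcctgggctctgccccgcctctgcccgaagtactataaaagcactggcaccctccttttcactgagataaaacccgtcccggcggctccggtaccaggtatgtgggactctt
In Isg15 the 3 matches overlap and begin 78, 72 and 66 bases before the start. Ifit1 holds 2 matches on the opposite strand, 104 and 85 bases before it, and Ifit3 holds 2, at 156 and 122 bases. Rsad2 holds 1, at 120 bases. A match is a description of the letters and says nothing of binding.

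Cells were taken as CD3 and CD8 positive with at least 1 UMI of Cd3d, Cd3e or Cd3g and at least 1 of Cd8a or Cd8b1, where a UMI is 1 counted molecule. Of the kept barcodes, 8153 of 8410 passed in KO against 8966 of 9405 in WT, and 8252 of 8798 in Aged against 9803 of 10538 in Young. Their median depth was 6870 UMIs in KO against 6341 in WT, and 5768 in Aged against 4510 in Young. Bfar stood at 22.4 CPM in KO (95% interval 21.3 to 23.5) against 32.1 in WT (30.9 to 33.4), where CPM is UMIs per 1000000 UMIs of the same cells. Transcripts of Bfar thus remained in KO, and the labels do not say which exons were removed. KO and WT share 20 barcodes and Aged and Young share 145. Clusters led by markers of other cell types (myeloid, dendritic, mast, epithelial, fibroblast and endothelial) passed the gate and held 1.28% of its cells in KO against 3.31% in WT, and 2.92% in Aged against 8.80% in Young. Members whose direction or 1.2-fold call changed without them are named below. The pairs differ in kit and host, so levels were compared only within a pair.

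Summed over all members, KO cells held less of this programme than WT cells. The 42 members together reached 5391 CPM in KO (5374 to 5408) against 6211 in WT (6193 to 6229), a ratio of 0.868 (0.864 to 0.872). In the other pair the sum was 6665 CPM in Aged (6645 to 6685) against 6863 in Young (6842 to 6884), a ratio of 0.971 (0.967 to 0.975). A large part of the lower sum in KO came from Ifi27l2a, the most abundant member, which encodes a small membrane protein. It stood at 1957 CPM in KO against 2401 in WT. The sum was not carried by this gene alone: without it the ratio was 0.901. Without the clusters of other cell types the ratios were 0.839 for KO over WT and 0.943 for Aged over Young. With every cell weighing the same, the KO ratio was 0.831, while that of Aged over Young turned to 1.02.

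Among single members, 10 of 42 were at least 1.2 times lower in KO and 0 were at least 1.2 times higher. Of all 7415 measured genes, 9.93% were as far lower and 4.02% as far higher. Here 33 of 42 members had a log2 ratio below 0 and 9 above it, against 63.8% and 36.2% of all genes, and the median log2 ratio was -0.15 for members and -0.05 for all genes. At 1.5 times, 1 member was lower (3.09% of all genes) and 0 were higher (0.607%). The count at 1.2 times depended on the weighting: 18 of 42 were lower as a mean over cells, where 6.59% of genes were, and 3 of 41 with equal cluster weights, where 3.11% were. Without the clusters of other cell types, 11 of 41 measured members were at least 1.2 times lower and 0 higher, where 4.64% and 3.76% of 7159 genes were. Then Ifit2, Ifit1bl1, Xaf1 and Irf7 also passed 1.2 times, Cmpk2 (0.845) and Ifi204 (0.849) no longer did, Oasl1 was below the level counted as measured, and Ifit3b, Trim30a and Ifi208 turned from above WT to below it. At 1.5 times 0 members passed in either direction, where 0.349% of genes were lower and 0.545% higher. In Aged over Young, 5 of 41 measured members were at least 1.2 times higher, where 17.9% of 7938 genes were, and 8 were as far lower, where 8.42% of genes were. At 1.5 times, 1 member was higher (2.62% of all genes) and 3 were lower (3.83%). The log2 ratio was above 0 for 21 members and below 0 for 20, against 67.3% and 32.7% of all genes, and its median was 0.0045 for members and 0.08 for all genes. Without the clusters of other cell types, 2 of 40 measured members were at least 1.2 times higher and 9 lower, where 19.4% and 6.64% of 7784 genes were. Ifit1bl1 (1.15), Dtx3l (1.19) and Ifi209 (1.13) then no longer passed as higher, Ifit3b (0.786) and Ddx60 (0.818) passed as lower, and 9 members turned direction: Oasl1, Ifi27l2a, Zbp1, Ifit2, Herc6, Phf11b, Irf9, Slfn1 and Slfn8. At 1.5 times 1 member was then higher (3.19% of genes) and 2 were lower (1.79%). The sign of the member median turned under several settings, so no direction is read from it.

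**Figure D1:**
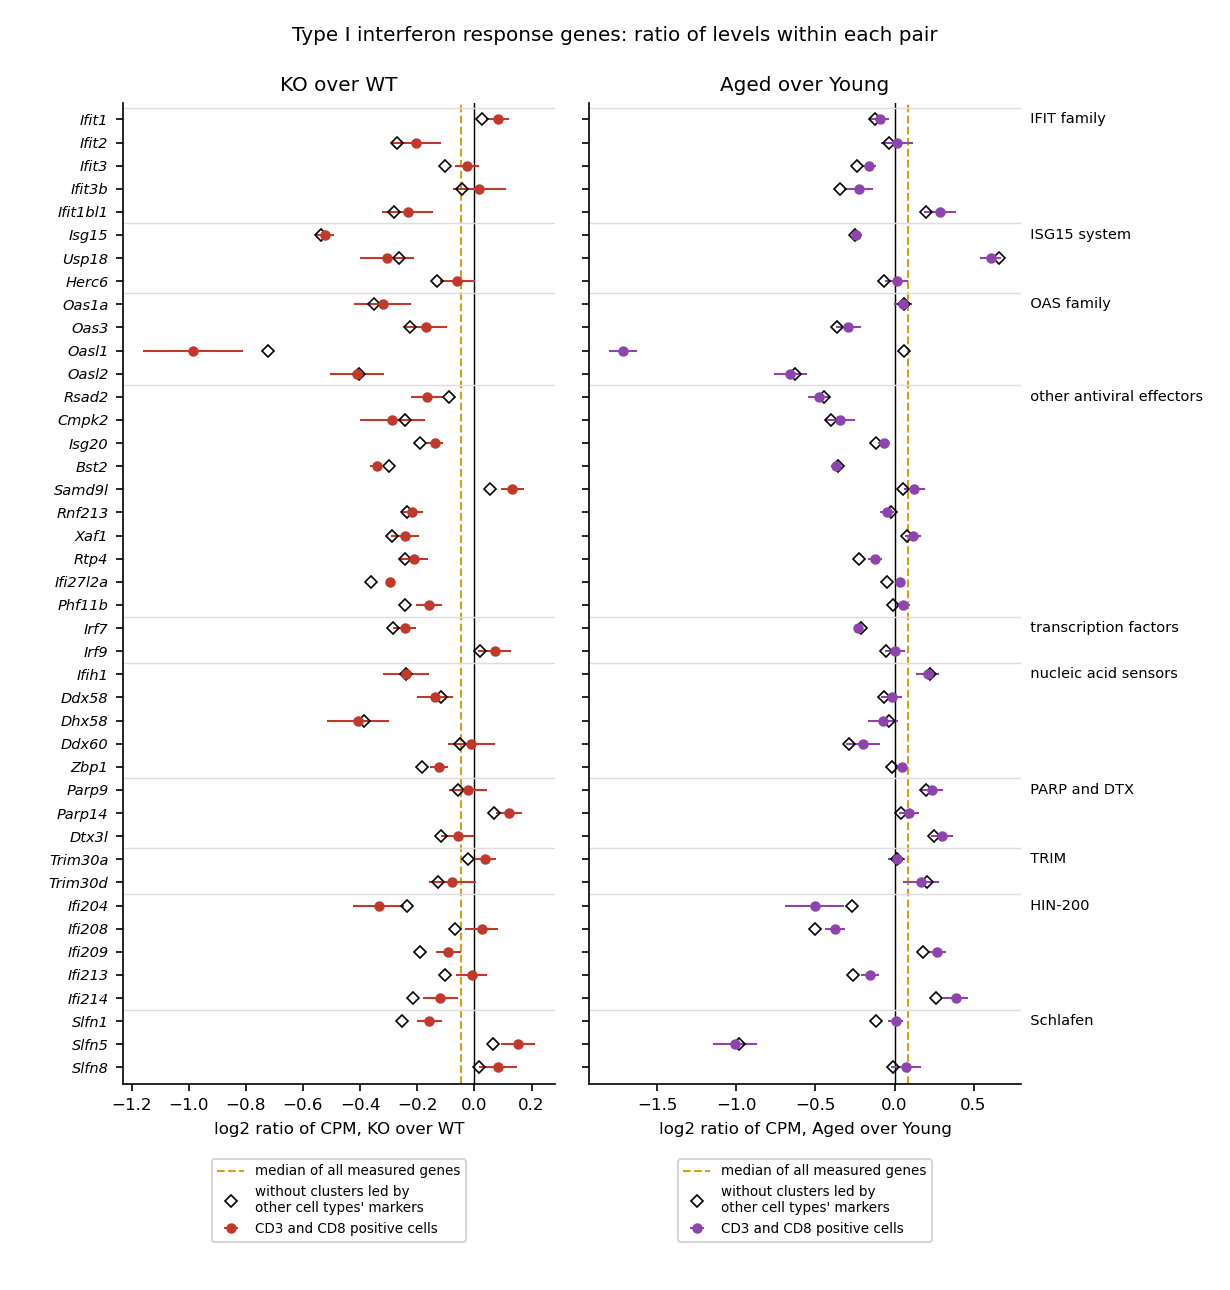
Each row is 1 member, grouped by role, and the horizontal axis is the log2 ratio of CPM (no pseudocount), KO over WT on the left and Aged over Young on the right. Filled points are CD3 and CD8 positive cells with 95% counting intervals, open diamonds the same without clusters led by other cell types' markers, and the dashed line the median of all measured genes. Most KO points lie left of 0, with Oasl1 at a ratio of 0.505, and in the right panel Oasl1 stands at a ratio of 0.304 with those clusters and 1.04 without them.

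In KO over WT the ISG15 system and the OAS family were lowest by role. ISG15 is a ubiquitin-like protein that is joined to other proteins, and it stood at 197 CPM in KO against 283 in WT, a ratio of 0.696 (0.681 to 0.711). Usp18, the protease that removes ISG15 and restrains the receptor, was at 22.2 CPM in KO against 27.4 in WT (0.809, 0.757 to 0.864). Herc6, the mouse ligase of ISG15, was at 56.3 CPM in KO against 58.7 in WT (0.960, 0.919 to 1.00). The 3 genes summed to 0.746 times the WT level, carried by Isg15.

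The OAS genes make the 2′-5′ oligoadenylates that activate RNase L, or are their catalytically divergent relatives. They summed to 88.5 CPM in KO against 111 in WT, and 3 of 4 were at least 1.2 times lower in KO. Oasl1, a repressor of Irf7 translation in mouse, was the lowest member at 5.63 CPM in KO against 11.1 in WT (0.505, 0.447 to 0.570). Of its UMIs, 11.2% in KO and 31.9% in WT lay in the clusters of other cell types, and without these its ratio was 0.605 (0.528 to 0.693) at under 10 CPM in both libraries. Oasl2 was at 21.7 CPM in KO against 28.8 in WT (0.752, 0.704 to 0.803), Oas1a at 20.9 and 26.1 CPM (0.800), and Oas3 at 40.3 and 45.3 CPM (0.889), KO before WT.

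Further low members were spread over other roles. Bst2, tetherin, which holds budding virus at the cell surface, was at 382 CPM in KO against 484 in WT (0.789, 0.777 to 0.802). Dhx58, the RIG-I relative LGP2, was at 16.8 CPM in KO against 22.3 in WT (0.754, 0.700 to 0.813). Ifi204, a DNA-binding HIN-200 protein, was at 25.7 CPM in KO against 32.4 in WT (0.793, 0.746 to 0.843), with 11.1% of its KO and 23.8% of its WT UMIs in the clusters of other cell types, and stood at 24.0 and 28.2 CPM (0.849, 0.794 to 0.909) without them. Ifi27l2a was at 1957 CPM in KO against 2401 in WT (0.815, 0.809 to 0.821). Irf7, the factor that amplifies interferon production, was at 127 CPM in KO against 151 in WT (0.845, 0.821 to 0.868), and its ratio was 0.822 without those clusters. The exonuclease gene Isg20 was at 221 CPM in KO against 243 in WT (0.908), and Zbp1, a sensor of Z-form nucleic acid, was at 195 and 213 CPM (0.918). The difference therefore varied between members. Isg20 and Zbp1 moved by under 10% in all gated cells, but their ratios were 0.876 and 0.881 without those clusters. The more abundant Ifi27l2a, Bst2 and Irf7 stood further below WT.

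The IFIT genes, whose proteins bind foreign RNA, summed to 345 CPM in KO against 348 in WT, a ratio of 0.992. Ifit1 was at 142 CPM in KO against 135 in WT (1.06, 1.03 to 1.09) and Ifit3 at 123 CPM in KO against 126 in WT (0.983, 0.954 to 1.01). The genes Parp9, Parp14 and Dtx3l, which act in ADP-ribosylation and ubiquitin transfer, summed to 1.03 times the WT level. The members highest against WT were Slfn5 at 65.1 CPM in KO against 58.6 in WT (1.11, 1.07 to 1.16), Samd9l, a restriction factor, at 137 and 125 CPM (1.10), Parp14 at 115 and 106 CPM (1.09) and Slfn8 at 50.5 and 47.7 CPM (1.06). Irf9, the DNA-binding part of ISGF3, was at 67.8 CPM in KO against 64.6 in WT (1.05, 1.01 to 1.09). Each of these 5 and Ifit1 drew closer to WT without the clusters of other cell types, between 1.01 and 1.05 times. The IFIT, HIN-200, Schlafen and TRIM30 genes have near-identical copies, and the sources used here do not say how reads shared between copies were counted, so single values of these genes are uncertain.

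In Aged over Young the members did not move together. In all gated cells the OAS family had the lowest sum by role, 160 CPM in Aged against 224 in Young (0.716). Oasl1 was at 20.6 CPM in Aged against 67.7 in Young (0.304, 0.286 to 0.323). Of its UMIs, 54.3% in Aged and 88.4% in Young lay in the clusters of other cell types, where it reached 220 CPM in Aged against 352 in Young. In the remaining cells it stood at 9.91 CPM in Aged against 9.49 in Young, a ratio of 1.04 (0.925 to 1.18). Oasl2 kept its ratio: 0.634 (0.590 to 0.681) in all gated cells and 0.647 (0.598 to 0.701) in the remaining ones. Oas3 had ratios of 0.816 and 0.776, and Oas1a of 1.04 in both, all gated cells before the remaining ones. Sums by role were not taken in the remaining cells, so the rank of the OAS family holds for all gated cells only.

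Further low members were Slfn5, Rsad2, Bst2 and Ifi208. Slfn5 was at 9.82 CPM in Aged against 19.8 in Young (0.496, 0.450 to 0.547), and at 8.72 and 17.3 CPM (0.505) in the remaining cells. Rsad2, viperin, which makes a chain-terminating nucleotide, was at 43.4 CPM in Aged against 60.4 in Young (0.719, 0.684 to 0.755). Its neighbour in that pathway, the nucleotide kinase gene Cmpk2, was at 25.99 CPM in Aged against 33.0 in Young (0.788). Bst2 was at 368 CPM in Aged against 476 in Young (0.773, 0.760 to 0.786), and Isg15 at 322 CPM in Aged against 382 in Young (0.844, 0.828 to 0.860). Ifi208 was at 54.6 CPM in Aged against 70.8 in Young (0.771, 0.737 to 0.806). The low members thus came from several roles.

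Usp18 was the highest member, at 72.9 CPM in Aged against 47.8 in Young (1.52, 1.46 to 1.60), and at 72.5 and 45.9 CPM (1.58) without the clusters of other cell types. Its direction was opposite to that of Isg15 in the same cells. Ifi214 was at 46.3 CPM in Aged against 35.4 in Young (1.31, 1.24 to 1.38), beside Ifi208 of the same gene cluster at 0.771. Dtx3l was at 60.7 CPM in Aged against 49.3 in Young (1.23), Ifit1bl1 at 28.6 and 23.4 CPM (1.22), Ifi209 at 100 and 83.2 CPM (1.21) and Parp9 at 57.8 and 49.1 CPM (1.18). Among the most abundant members, Ifi27l2a was at 3200 CPM in Aged against 3126 in Young (1.02), Zbp1 at 200 and 194 CPM (1.03), and Isg20 at 164 and 171 CPM (0.955). Without the clusters of other cell types Ifi27l2a was at 3236 CPM in Aged against 3341 in Young (0.968, 0.962 to 0.975), and Zbp1 at 199 and 201 CPM (0.990), so the direction of both turned. Irf7 was at 278 CPM in Aged against 326 in Young (0.853, 0.836 to 0.871).

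Within each library the members were concentrated in the same minority of cells, although most UMIs of most members lay in the other cells. Every cell was thinned to 2000 UMIs, and for each member the cells were ranked by the other 41 members. On average over the libraries, the top 10% of cells held a median of 37.1% of a member's UMIs. The median was 9.66% over 6025 genes outside the list with at least 200 thinned UMIs in every library. Their 5th and 95th percentiles were 7.24% and 13.2%. Members were not held to that minimum, and in Aged Ifi204 had 110 thinned UMIs and Slfn5 185. Ifi204 (63.4%), Slfn5 (62.8%), Rsad2 (61.2%), Ifit3b (60.4%), Ifit2 (59.5%), Ifit1 (56.1%) and Ifit3 (55.1%) were most confined to the top 10% of cells. Irf9 (19.4%), Ifi27l2a (20.8%), Samd9l (25.5%), Dtx3l (28.6%) and Bst2 (29.2%) were least. Oasl1 differed between libraries, at 73.4% in KO against 54.9% in WT, and 48.7% in Aged against 20.4% in Young. The cells of a ranking share their library, and the ranking is a description without a test.

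**Figure D2:**
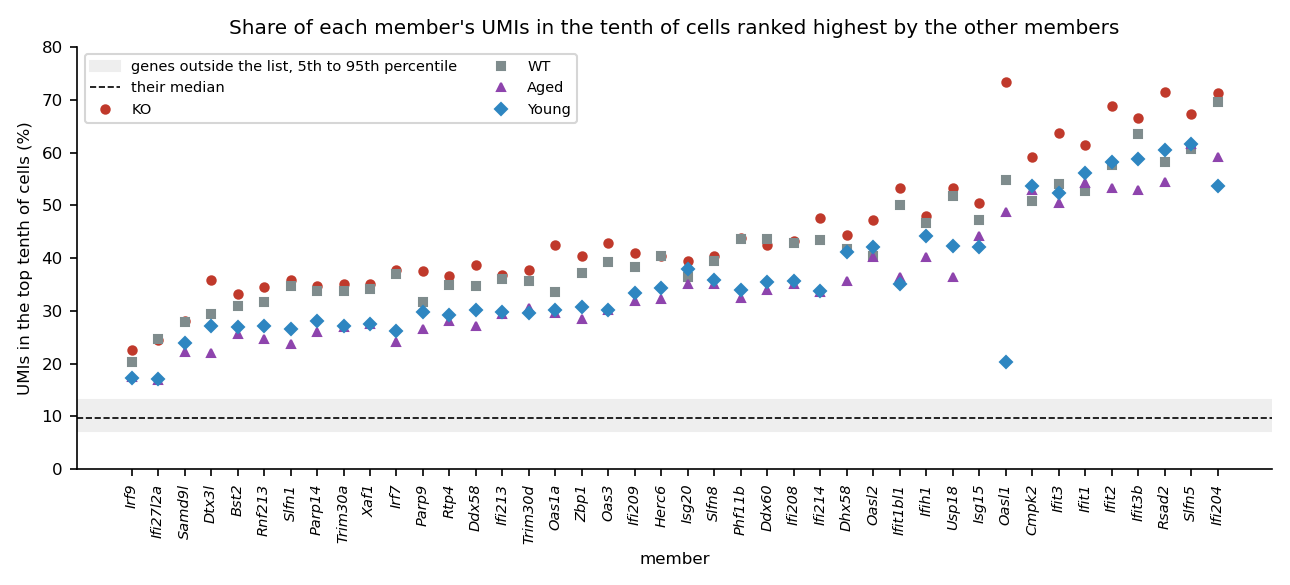
Each column is 1 member, ordered by the mean over libraries, and the vertical axis is the percentage of its UMIs found in the 10% of cells with most UMIs of the other 41 members, after thinning to 2000 UMIs. Symbols mark the 4 libraries, and the band and dashed line give the 5th to 95th percentile and the median of 6025 genes outside the list. Those genes had at least 200 thinned UMIs in every library. All members lie above the band in all libraries, from Irf9 at a mean of 19.4% to Ifi204 at 63.4%.

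Cells high in the programme were fewer in KO than in WT. The summed member UMIs of a thinned cell had a median of 6 in KO and 7 in WT, and of 13 in Aged and 12 in Young. Taking the top 5% of a pair, at 48 UMIs or more, as high scorers, 327 of 8108 KO cells qualified, or 4.03% (exact 95% interval 3.62 to 4.48), against 523 of 8886 WT cells, or 5.89% (5.41 to 6.40). The ratio of shares was 0.685. At the edge, 19 KO and 25 WT cells stood at exactly 48 UMIs, and 16 KO and 29 WT cells at 47. In the other pair the limit was 41 UMIs, and 412 of 8051 Aged cells, or 5.12% (4.65 to 5.62), and 477 of 9192 Young cells, or 5.19% (4.74 to 5.66), reached it. Thinning left out 45 KO, 80 WT, 201 Aged and 611 Young cells below 2000 UMIs.

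High scorers expressed many members at once, which follows in part from their choice by summed member UMIs. The same holds for their share of member UMIs. High scorers had a median of 23 members detected in KO, where the remaining cells had 4, 22 against 4 in WT, 19 against 5 in Aged and 20 against 5 in Young. They held 21.9% of all member UMIs in KO against 26.3% in WT, and 17.7% in Aged against 18.8% in Young. Their cells before thinning had fewer UMIs than the rest, with medians of 5779 against 6963 in KO, 5190 against 6492 in WT, 4683 against 5999 in Aged and 4008 against 4770 in Young. Genes outside the list moved with them. The cytotoxic granule gene Gzmb was at 1801 and 596 CPM in KO, 2812 and 920 CPM in WT, 2717 and 1721 CPM in Aged and 1952 and 950 CPM in Young, high scorers before the rest. Ccr7, the lymph node homing receptor, was lower in high scorers in all 4 libraries, for example 70.3 against 219 CPM in KO cells and 30.3 against 74.8 CPM in Aged cells. Myeloid genes did not all go one way, and some of their values rest on few UMIs. H2-Aa, a gene of antigen-presenting cells, was lower in high scorers in all 4 libraries, at 4.85 against 55.0 CPM in Aged and 5.24 against 220 CPM in Young. Lyz2 was at 15.8 against 9.10 CPM in Aged and 6.69 against 5.92 CPM in WT, and lower in KO and Young high scorers, while C1qa was at 5.74 against 3.59 CPM in WT and lower in the other libraries. High scorers held only 13 Lyz2 UMIs in Aged and 7 in WT, and 6 C1qa UMIs in WT. No direction is read for either gene. In the cluster led by C1qb and C1qa, 7.89% of Aged and 3.07% of Young cells were high scorers. With the clusters of other cell types left out, the shares of high scorers were 4.07% in KO against 6.06% in WT, and 5.11% in Aged against 5.47% in Young. The part of such cells' transcripts in the high scorers was not tested. Ifnar1 differed less, between 123 and 144 CPM in high scorers and between 108 and 116 CPM in the rest.

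**Figure D3:**
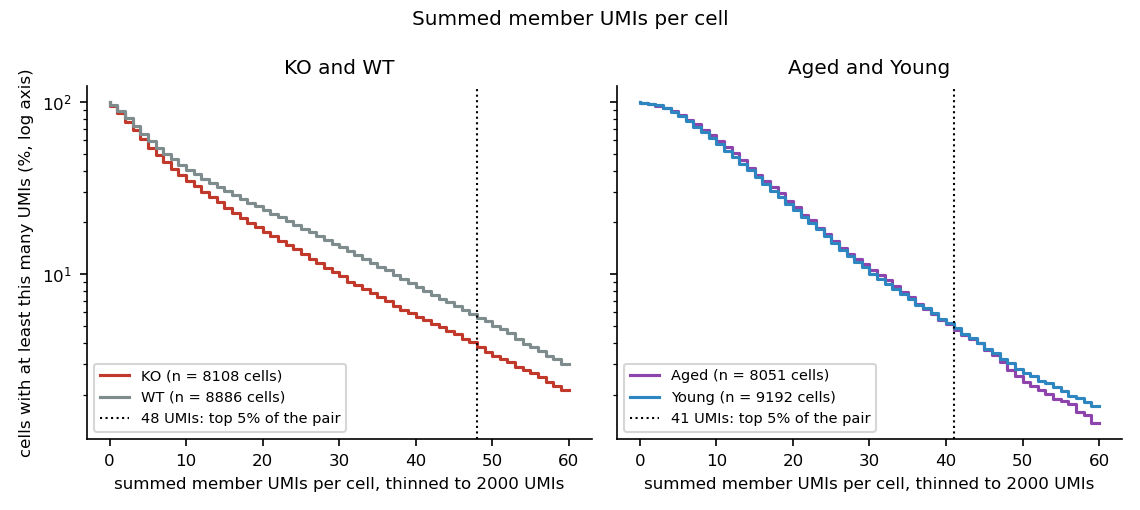
The horizontal axis is the summed member UMIs of a cell thinned to 2000 UMIs, and the vertical log axis the percentage of cells with at least that many, KO and WT on the left and Aged and Young on the right. The dotted line marks the top 5% of each pair. The KO curve lies below the WT curve over the upper range (4.03% and 5.89% at the line), and the Aged and Young curves nearly coincide (5.12% and 5.19%).

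Each pair was clustered with the members and the other listed interferon-induced genes left out, and a cluster with high member levels still formed in both. Leading genes were then read over all genes, members included. Interferon-induced genes on neither list could shape these clusters. In KO and WT this cluster, led by Slfn5, Cxcl10, Ifit3 and Trim30c, had 300 KO and 378 WT cells, and its summed member level was 27685 CPM in KO against 27207 in WT (1.02, 1.01 to 1.03). It held 62.7% of the KO high scorers and 48.0% of the WT high scorers. In the other pair the cluster led by Ifna4, Slfn5, Cxcl10 and Ifit2 had 93 Aged and 141 Young cells, at 28838 CPM in Aged against 29675 in Young (0.972, 0.9497 to 0.994). It held 17.7% of the Aged and 23.7% of the Young high scorers. Ifna4 had 191 UMIs in 11 gated Aged cells and 0 UMIs in gated Young cells. Its place among the leading genes thus does not describe the cells of this cluster at large. Single members were compared over clusters of at least 50 cells in both libraries together and without a lead by other cell types' markers. Among these, all 42 members were highest in that cluster of their pair. The median fold over the median of the other clusters was 7.16 in KO and WT and 6.31 in Aged and Young. That cluster had been picked for the highest summed member level, so this result follows in part from the choice. Irf9 was raised least in it (2.41 and 1.96 times), Ifi204 most in KO and WT (21.3 times) and Slfn5 most in Aged and Young (37.1 times). Oasl1 stood at 126 CPM in that cluster of Aged and Young. It was higher in the clusters of other cell types, at 220 CPM in Aged and 352 in Young.

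Outside that cluster, KO was below WT in most clusters, and those described here were picked for their level or ratio after the values were seen. Of 16 clusters with at least 50 cells and no lead by other cell types' markers, the summed level was lower in KO in 13, with ratios from 0.681 to 1.31 over the 16. The next highest cluster by level, led by Maf, Setbp1, Tox2 and Gzmk, stood at 6832 CPM in its 303 KO cells and 9455 CPM in its 1041 WT cells (0.723, 0.711 to 0.735). It held 3.67% of the KO high scorers and 19.5% of the WT high scorers. Within it 26 of 41 measured members were at least 1.2 times lower in KO and 0 higher, where 18.4% of 7350 genes were as far lower and 11.8% as far higher. Isg15 there was at 182 CPM in KO against 378 in WT (0.481, 0.435 to 0.531), Bst2 at 306 and 561 CPM (0.545, 0.504 to 0.589) and Rsad2 at 26.9 and 64.01 CPM (0.420, 0.320 to 0.542). In the cluster led by Foxp3 and Il2ra, which has 100 KO and 71 WT cells, 36 of 41 members were at least 1.2 times lower in KO and 0 higher, where 24.9% and 24.4% of genes were. Isg15 there was at 167 CPM in KO against 375 in WT (0.446, 0.368 to 0.540).

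The cluster led by Il17a, Il17f and Il22 ran the other way. Its summed level was 5971 CPM in 344 KO cells and 4551 CPM in 349 WT cells (1.31, 1.28 to 1.34), and 28 of 41 members were at least 1.2 times higher in KO and 1 lower, where 12.9% and 22.4% of genes were. Isg15 was at 255 CPM in KO against 166 in WT there (1.54, 1.36 to 1.74), Ddx60, a helicase that assists RIG-I, at 43.9 and 18.3 CPM (2.40, 1.69 to 3.46), and Ifi204 at 31.0 and 11.8 CPM (2.63, 1.70 to 4.17). In the interferon-high cluster itself only 3 of 42 members were 1.2 times higher and 2 lower in KO, where 15.5% and 23.7% of genes were. Ifit1 there was at 1712 CPM in KO against 1375 in WT (1.24, 1.18 to 1.31) and Isg15 at 1534 and 1839 CPM (0.835, 0.795 to 0.876).

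In Aged and Young, 11 of 15 such clusters had a higher summed level in Aged, with ratios from 0.901 to 1.43, while the sum over all gated cells was lower in Aged. The median of these ratios was 1.03. The median gene was also higher in Aged, with a log2 ratio of 0.08 over all gated cells. Its ratio was 1.01 within the cluster led by Ifna4 and 1.05 within that led by Gzmd. The count of clusters is therefore not read as a direction of the members. The ratio was highest in the cluster led by the granzyme genes Gzmd, Gzme, Gzmf and Gzmg, at 4817 CPM in 1031 Aged cells and 3375 CPM in 78 Young cells (1.43, 1.38 to 1.48). There 27 of 35 measured members were at least 1.2 times higher in Aged and 1 lower, where 31.5% and 17.8% of genes were, with Usp18 at 64.2 and 24.8 CPM (2.59, 1.71 to 4.11) and Zbp1 at 148 and 65.7 CPM (2.25, 1.74 to 2.95). In the cluster led by Epha3, Ret, Maf and Ccl5, with 1763 Aged and 280 Young cells, the level was 8632 CPM in Aged against 9577 in Young (0.901, 0.885 to 0.918). That cluster held 25.2% of the Aged and 3.77% of the Young high scorers.

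**Figure D4:**
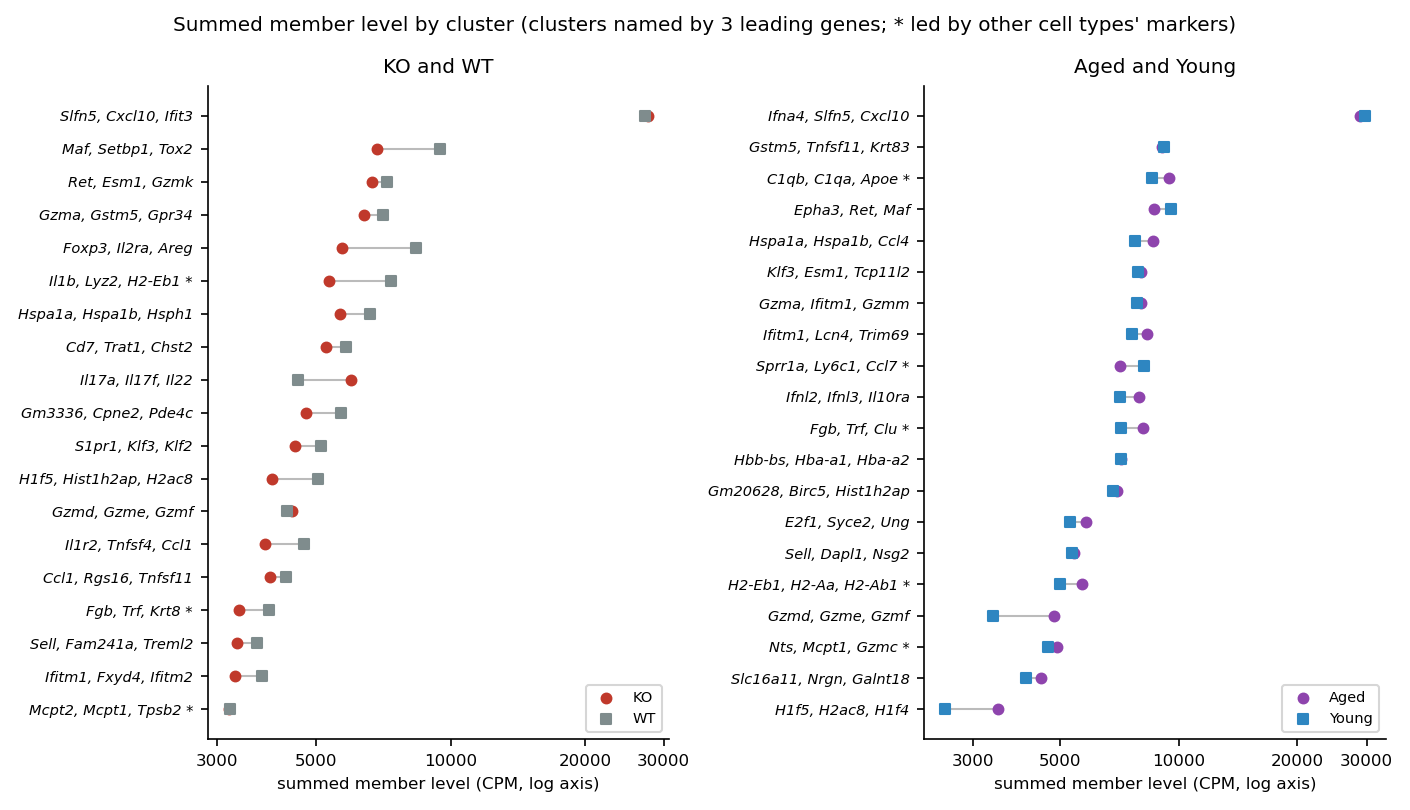
Each row is a cluster of at least 50 CD3 and CD8 positive cells, named by its leading genes, and the log axis is the summed member level in CPM, KO and WT on the left and Aged and Young on the right. Circles are KO or Aged, squares WT or Young, and an asterisk marks clusters led by other cell types' markers. The top cluster of each pair stands apart at 27207 to 29675 CPM, the Maf cluster has a ratio of 0.723 between KO and WT, and the Il17a cluster is higher in KO with a ratio of 1.31.

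Within the pair of Aged and Young, UMIs of the pathway's ligands were found mostly in Aged. Counts of KO and WT are given without a comparison to that pair, because kit and host differ. Over 15 genes of alpha and beta interferon, 43 of 8798 kept Aged cells held at least 1 UMI (0.489%, 0.354 to 0.658) with 736 UMIs in all, and 13 of 10538 Young cells (0.123%, 0.0657 to 0.211) with 182 UMIs. In KO it was 1 of 8410 cells with 6 UMIs and in WT 5 of 9405 cells with 5 UMIs. In Aged the UMIs came from Ifna4 (214), Ifnb1 (168), Ifna2 (157) and Ifna1 (156), and 3 cells held 40.5% of them. Of the 43 Aged cells, 31 passed the CD3 and CD8 gate, with medians over the 43 of 5 CD3 and 6 CD8 UMIs, against 18 and 10 in all kept Aged cells. Dendritic cell markers reached at least 2 UMIs in 15 of the 43, and plasmacytoid dendritic cell markers in 6. Which cells made the transcripts was not tested.

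In Aged and Young, cells with ligand UMIs had a higher median member level than the rest. In Aged their median was 217 member UMIs per 10000 UMIs, against 62.4 in Aged cells with none, and 22 of 43 lay above the 95th percentile of the Aged cells with none (201). In Young the medians were 123 and 58.9, and 5 of 13 cells lay above the 95th percentile (199). Among cells that passed the CD3 and CD8 gate the medians were 161 against 62.9 in Aged, with 12 of 31 above the percentile, and 76.7 against 59.7 in Young, with 1 of 8 above it. In WT the median of the 5 cells was 29.1, below the 36.0 of cells with none, but 67.6 against 37.0 for the 4 that passed the gate, and the 1 KO cell stood at 61.2 against 31.4; none of these 6 cells lay above the percentile. Ligand UMIs depend on few cells, and the comparison describes these cells only.

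**Figure D5:**
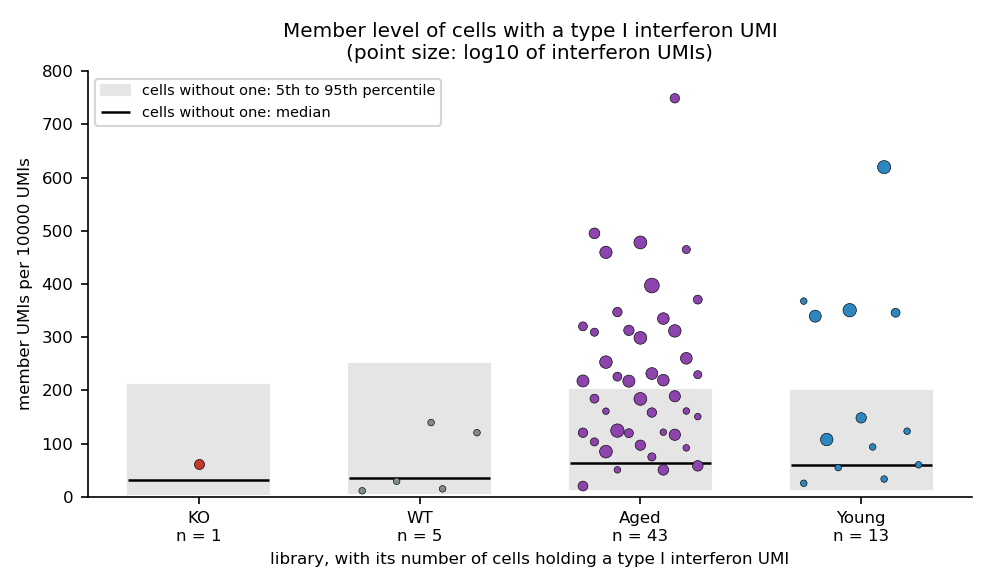
Each point is a kept cell with at least 1 UMI of an alpha or beta interferon gene, by library, and the vertical axis is its member UMIs per 10000 UMIs, with larger points for more interferon UMIs. Grey boxes span the 5th to 95th percentile and the line the median of the cells without such a UMI. In Aged 22 of 43 points lie above the box.

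Receptor and signalling genes of the pathway were counted at 1.2 times. In KO over WT 0 of 28 measured pathway genes were at least 1.2 times higher and 3 were lower, where 4.02% and 9.93% of all genes were. In Aged over Young 6 of 29 were higher and 6 lower, where 17.9% and 8.42% were. With the clusters of other cell types left out, the counts were 0 higher and 2 lower of 28 in KO over WT (3.76% and 4.64% of all genes), and 6 higher and 4 lower of 28 in Aged over Young (19.4% and 6.64%). Ifnar1 was at 107 CPM in KO against 99.02 in WT (1.08, 1.05 to 1.12), and at 97.4 CPM in Aged against 98.8 in Young (0.986, 0.951 to 1.02). Ifnar2 was at 43.2 CPM in KO against 45.4 in WT (0.951), and at 58.2 CPM in Aged against 78.5 in Young (0.741, 0.710 to 0.773). Stat2 was at 24.7 CPM in KO against 30.2 in WT (0.819, 0.769 to 0.872), and at 33.0 CPM in Aged against 27.4 in Young (1.21, 1.13 to 1.29). Thus Stat2 was lower in KO, as Isg15 and Oasl2 were, whereas Ifnar1 was not.

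Ifng, the gene of interferon gamma, was highest of the pathway in KO over WT, at 172 CPM in KO against 145 in WT (1.19, 1.16 to 1.22), and stood at 307 CPM in Aged against 220 in Young (1.40). Irf2, a repressor at the same promoter elements, was at 115 CPM in KO against 102 in WT (1.13). Sp140, a nuclear body gene, was at 97.3 CPM in Aged against 64.7 in Young (1.503, 1.44 to 1.56). The lowest were Ifngr2, a chain of the interferon gamma receptor, at 14.2 CPM in KO against 21.7 in WT (0.654, 0.603 to 0.708) and 4.65 CPM in Aged against 13.2 in Young (0.353, 0.308 to 0.404), and Irf5 at 22.1 CPM in Aged against 52.3 in Young (0.422, 0.396 to 0.449). In the cells that remained without the clusters of other cell types, Irf5 stood at 11.8 CPM in Aged against 11.7 in Young (1.01, 0.901 to 1.12), and Ifngr2 at 13.3 CPM in KO against 17.4 in WT (0.761, 0.696 to 0.831) and under 5 CPM in Aged and Young. Socs3, a feedback inhibitor of JAK kinases, was at 69.9 CPM in KO against 90.6 in WT (0.771), and its ratio was 0.843 in the remaining cells.

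Interferon-induced genes outside the list were counted at 1.2 times as well. In KO over WT, of 63 measured, 1 was at least 1.2 times higher and 5 lower, where 4.02% and 9.93% of all genes were. Their median log2 ratio was -0.00023 against -0.05 for all genes. In Aged over Young 8 of 68 were higher and 9 lower, where 17.9% and 8.42% of all genes were, with a median of 0.06 against 0.08. When the clusters of other cell types were left out, 2 of 63 were higher and 7 lower in KO over WT, with a median of -0.06. Of all genes 3.76% and 4.64% were as far higher and lower. In Aged over Young 8 of 65 were then higher and 9 lower, with a median of 0.02, where 19.4% and 6.64% of all genes were. The membrane gene Ifitm1 had the largest range: 1605 CPM in KO against 990 in WT (1.62, 1.61 to 1.64), and 276 CPM in Aged against 825 in Young (0.334, 0.329 to 0.340). Ifitm3 was at 330 CPM in KO against 447 in WT (0.738), and 168 CPM in Aged against 385 in Young (0.436). In the remaining cells Ifitm3 turned to 277 CPM in KO against 264 in WT (1.05, 1.03 to 1.07), while Ifitm1 was still higher in KO (1.54) and lower in Aged (0.298). Iigp1, a GTPase raised by interferon gamma, was at 20.02 CPM in KO against 28.6 in WT (0.701). Ifitm2 was at 574 CPM in KO against 482 in WT (1.19). Ifi44 was at 11.8 CPM in Aged against 6.41 in Young (1.84, 1.63 to 2.08), with a ratio of 2.53 (2.18 to 2.95) without those clusters, and Znfx1 at 38.8 and 26.5 CPM (1.47). The non-member most confined to the cells ranked high by the members was the chemokine gene Cxcl10, with 60.4% of its UMIs in the top 10% of cells, followed by Ifi211 (47.5%) and Phf11a (45.1%).

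In barcodes outside the gate the members reached 3501 CPM in 257 KO cells and 3542 CPM in 439 WT cells, and 7195 CPM in 546 Aged cells and 5475 CPM in 735 Young cells. Their highest cluster was led by Klk1 and the plasmacytoid dendritic cell genes Siglech, Cox6a2 and Ccr9, at 11421 CPM in 2 Aged cells and 10286 CPM in 8 Young cells. Some of these clusters carried T cell genes, so they are not a set free of T cells.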

How the data were processed

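Droplet libraries of sorted CD8+ T cells were analysed from the deposited matrices, which hold whole-number UMI counts per gene and barcode made by the authors. Per the file headers they were written by Cell Ranger 6.1.1 for KO and WT and 7.1.0 for Aged and Young. In the submitters' processing notes Cell Ranger is at 6.0.0, beside Seurat 3.2.3 and mm10, so the version is not settled. The sources used here give neither the annotation release nor the treatment of intronic reads. By the protocols in the labels, KO and WT used a 3′ kit and Aged and Young an immune profiling kit. Deposited totals were 72752583 UMIs in KO against 85401443 in WT, and 70727987 in Aged against 68017515 in Young.

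Barcodes were kept from 1000 UMIs and 500 genes upwards, with mitochondrial UMIs up to 10%. CPM was taken over summed UMIs of the gated cells, with exact Poisson intervals. Ratios have exact conditional binomial intervals and shares exact Clopper-Pearson intervals, all at 95% and for counting error only. UMI counts are of transcript ends, so CPM was not divided by length. Before log2 ratios 1 CPM was added. Genes counted as measured from 20 UMIs in a pair and 10 CPM in either library. With 1 library per group no test was made and no member called by p-value. Pairs were clustered with scanpy 1.11.5 (Leiden, igraph 0.11.9, resolution 1, 2000 variable genes, 30 principal components, 15 neighbours). A cluster counted as led by other cell types with at least 2 of their markers among its 10 leading genes, or CD3 and CD8 levels under 0.65 times the median cluster. That limit, and leaving these clusters out, were chosen after the data were seen. No doublet caller was run, and removing barcodes with 2 or more UMIs of other cell types' markers was an alternative. The code was tested on simulated data.

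Named genes are the 6 highest and 6 lowest members of each pair, the 6 most abundant, those most and least confined to few cells, and the 2 highest and 2 lowest of each other list. By the planned measure, the share of a member's UMIs in its own top 10% of cells, many members tied at the maximum, so the ranking by the other members was used instead. Members and lists were chosen with earlier results of these data known.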

Additional observations from a re-analysis of the deposited data

Results flagged for a closer look

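Ifnl2 and Ifnl3, the genes of interferon lambda, were on none of the lists compared. In Aged they held 483 UMIs over 14 of the kept cells, but 1 cell held 304 of them and another 91, together 81.8%. Of the 14 cells, 10 also held alpha or beta interferon UMIs. In Young they held 1 UMI, in 1 cell, and in KO and WT 8 and 16 UMIs. Both genes lead a cluster of 486 Aged and 119 Young cells. Only 10 gated Aged cells and 1 gated Young cell held any of their UMIs, so that lead rests on few cells. They are given here because the Aged count stands above that of Young; the difference was not tested, and each group is 1 library.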

How the results depend on the processing

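The sum of the members in KO over WT stayed below 1 under every alternative run. Against 0.868 it was 0.896 over all kept barcodes, 0.831 as a mean over cells, 0.900 with equal cluster weights, 0.852 without the highest cluster, 0.834 without barcodes with other cell types' markers, 0.872 without mitochondrial, ribosomal protein and receptor UMIs, 0.897 scaled to the median gene, 0.835 thinned, 0.839 without the other cell types' clusters and 0.901 without Ifi27l2a. The median log2 ratio was -0.085, -0.22, -0.08, -0.20 and -0.10 over all kept barcodes, as a mean over cells, with equal cluster weights, without barcodes with such markers and scaled to the median gene. Members at least 1.2 times lower numbered 18 as a mean over cells (6.59% of all genes) and 3 with equal cluster weights (3.11%). The ratio of high-scorer shares was 0.792 at the top 2%, 0.833 without Isg15, Ifi27l2a, Bst2 and Isg20, and 0.799 with equal cluster weights. As a mean over cells the log2 ratios of Ifit1, Irf9 and Slfn8 turned to -0.032, -0.006 and -0.016.

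In Aged over Young the sum turned to 1.02 as a mean over cells, 1.03 with equal cluster weights and 1.02 thinned; it was 0.997 over all kept barcodes, 0.979 without the highest cluster, 0.917 scaled to the median gene, 0.943 without the other cell types' clusters and 0.927 without Ifi27l2a. The median log2 ratio turned to -0.00094 with at least 2 CD3 and 2 CD8 UMIs, -0.036 without barcodes with other cell types' markers, -0.0042 without mitochondrial, ribosomal protein and receptor UMIs, -0.078 scaled, -0.0065 with no filter on low counts, -0.018 without near-identical copies and -0.049 without the other cell types' clusters. Members lower numbered 5 over all kept barcodes (8.89% of all genes), 1 with equal cluster weights (4.09%) and 4 thinned (6.66%); members higher numbered 3 without barcodes with such markers (19.9%), 2 scaled (10.6%), 3 without near-identical copies (17.9%) and 2 without the other cell types' clusters (19.4%). The high-scorer ratio turned to 1.05 at the top 10%, 1.02 without thinning, 1.07 thinned to 4000 UMIs, 1.01 without the 4 named genes and 1.05 with equal cluster weights. Without the other cell types' clusters the log2 ratios of Oasl1, Ifi27l2a and Zbp1 turned to 0.057, -0.046 and -0.015; scaled, those of Ifi27l2a and Zbp1 turned to -0.049 and -0.038, and that of Irf7 to 0.10 with equal cluster weights. The cause of these changes was not tested. No paired analysis was possible because each group is 1 library.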
